A study of Mus musculus with 6 samples.

Results

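Myh7, Lrrc2, Synpo2l and Hspb1 are 4 genes of cardiac and skeletal muscle or of the stress response of muscle cells, and their RNA was compared between miR-125b-1 knockout and wild-type mouse ventricles at postnatal day 1. They are 4 of the 215 named genes of the table analysed here, and each is represented by 1 probe set. The genes were chosen by their difference between these same arrays, together with their known roles, so their values are given as a description and were not tested. The wild-type mice had the genotype aMHC-Cre; 125b1+/+ and the knockout mice aMHC-Cre; 125b1f/f, so the Cre recombinase was present in every animal and the groups differed in the loxP-flanked (floxed) allele. Cre was driven by the promoter of Myh6, the α-myosin heavy chain gene, which is active in cardiomyocytes, so by design the deletion spares the other cells of the ventricle. There were 3 arrays per group. The study calls them independent experiments, and whether an array holds 1 pup or several is not given in the sources used here.

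The table holds 271 probe sets, each of which differed by at least 1.00 on the log2 scale between the group means, so it is a selection made on these arrays, and groups that do not overlap come with that selection. Of these, 183 were higher in all 3 knockout arrays than in all 3 wild-type arrays, which is 67.5%, and the other 88 were lower. Over the whole table the median log2 intensity of an array was 0.54 higher for the knockout. An excess of higher over lower probe sets itself shifts this median. Without unchanged probe sets it could not be checked whether any of this part of each difference belongs to the scaling. Detection calls, the remaining probe sets and the targeted transcript are not analysed here. The RNA therefore gives no check of the genotypes.

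In the mouse, the ventricle switches its myosin heavy chain around birth. The β-isoform encoded by Myh7 is the slower motor and predominates in the fetal ventricle, while the faster α-isoform encoded by Myh6 takes over after birth under the influence of thyroid hormone. Return of Myh7 in the adult mouse ventricle is a widely used sign of hypertrophy and pressure overload. Synpo2l encodes a synaptopodin-like protein of the Z-disc, the structure that anchors actin filaments at the ends of the sarcomere. Hspb1 encodes a small heat shock protein that binds unfolding proteins and actin filaments, and Lrrc2 encodes a leucine-rich repeat protein found in heart and skeletal muscle.

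The deleted microRNA and the microRNAs carried by the myosin genes are shown with the seed (bases 2 to 8), which pairs with target RNAs, in capitals. The sequences are those of RefSeq on GRCm38.p6. The mature miR-125b-5p is encoded with the same 22 bases by Mir125b-1 (chr9:41581940-41581961, plus strand), the floxed locus, and by Mir125b-2 (chr16:77646279-77646300, plus strand), which was intact in both groups.
mmu-miR-125b-5p: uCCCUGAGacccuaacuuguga
mmu-miR-208b-3p: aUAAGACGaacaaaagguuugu
mmu-miR-208a-3p: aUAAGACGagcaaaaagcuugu
mmu-miR-499-5p: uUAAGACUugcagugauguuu
Mir208b lies within the Myh7 gene, Mir208a within Myh6 and Mir499 within Myh7b, a further myosin heavy chain gene. Myh6 is the protein-coding gene next to Myh7 on chromosome 14. The mature miR-208a-3p and miR-208b-3p differ at 3 bases and share the seed UAAGACG, whereas miR-499-5p has the seed UAAGACU. None of these microRNAs, nor Myh6 or Myh7b, is analysed here.

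Myh7 was the gene with the largest difference among all probe sets that were higher in the knockout. The intensity of its probe set was 1804, 1297 and 1849 on wild-type replicates 1, 2 and 3. On knockout replicates 1, 2 and 3 it was 18292, 17525 and 16948. The groups were far apart, since the lowest knockout array was 9.16-fold above the highest wild-type array. The means were 1650.1 ± 307 and 17588 ± 674 (SD, n = 3 each), a 10.8-fold difference or 3.43 on the log2 scale (standard error 0.12). The wild-type arrays varied more, with a coefficient of variation of 18.6% against 3.83% in the knockout. On the log2 scale 9 of the 271 probe sets had a larger SD than Myh7 among the wild-type arrays, and 247 had a larger SD among the knockout arrays. Wild-type replicate 2 was the low array, at -0.33 from the mean of its group on the log2 scale, while the median probe set of that array was at -0.02. Without this array the log2 difference of Myh7 was 3.27. The value of knockout replicate 1 was also the highest intensity of the whole table, and whether the scanner or the probes were near their upper limit there was not tested. In bulk ventricle, more cardiomyocytes or more cells that express the gene cannot be told apart from more RNA per cell.

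Lrrc2 was low in the wild-type ventricles and about 5-fold higher in the knockout. It was at 109.9, 81.9 and 96.6 on wild-type replicates 1, 2 and 3, and at 586, 483 and 404 on knockout replicates 1, 2 and 3. The groups did not overlap, and the closest pair of arrays from the different groups still differed by 3.68-fold. The means were 96.1 ± 14.0 and 491 ± 91.3 (SD, n = 3 each), which is 5.09-fold or 2.35 on the log2 scale (standard error 0.13). This was the 11th largest difference of the 183 higher probe sets. The knockout arrays were spread, with a ratio of 1.45 between the highest and the lowest, and only 10 probe sets of the table had a larger SD of log2 intensity in the knockout. Because the probe set was dim in the wild-type, the size of the difference depended on the background. With 50 added to every intensity the log2 difference was 1.88.

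Synpo2l was higher in every knockout array by a smaller factor. Its intensities were 182, 226 and 199 on wild-type replicates 1, 2 and 3, and 669.8, 609 and 503 on knockout replicates 1, 2 and 3. The lowest knockout array was 2.23-fold above the highest wild-type array. The means were 202 ± 22.0 and 594 ± 84.4 (SD, n = 3 each), a 2.93-fold difference or 1.55 on the log2 scale (standard error 0.12). With this value Synpo2l stood at rank 66 of the 183 higher probe sets, close to their median of 2.65-fold.

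Hspb1 was higher in every knockout array and had the smallest difference of the 4 genes. It was at 3232, 2814 and 3097 on wild-type replicates 1, 2 and 3, and at 5829.7, 6104 and 6579 on knockout replicates 1, 2 and 3. The groups were apart here too, with a ratio of 1.80 between the lowest knockout and the highest wild-type array. The means were 3048 ± 213 and 6171 ± 379 (SD, n = 3 each), a 2.03-fold difference or 1.02 on the log2 scale (standard error 0.11). This value lay just inside the edge of the table, as 7 of the 183 higher probe sets differed by less, and it was 0.16 below the median of all 271 differences. The spread was small, with a coefficient of variation of 6.99% in the wild-type and 6.14% in the knockout. The probe set ends in _x_at, which marks probes that can also bind other transcripts, so its signal may not be from Hspb1 alone. Without wild-type replicate 2 or without knockout replicate 3 the log2 difference of Hspb1 fell below 1, and the lowest such value was 0.96.

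**Figure D1:**
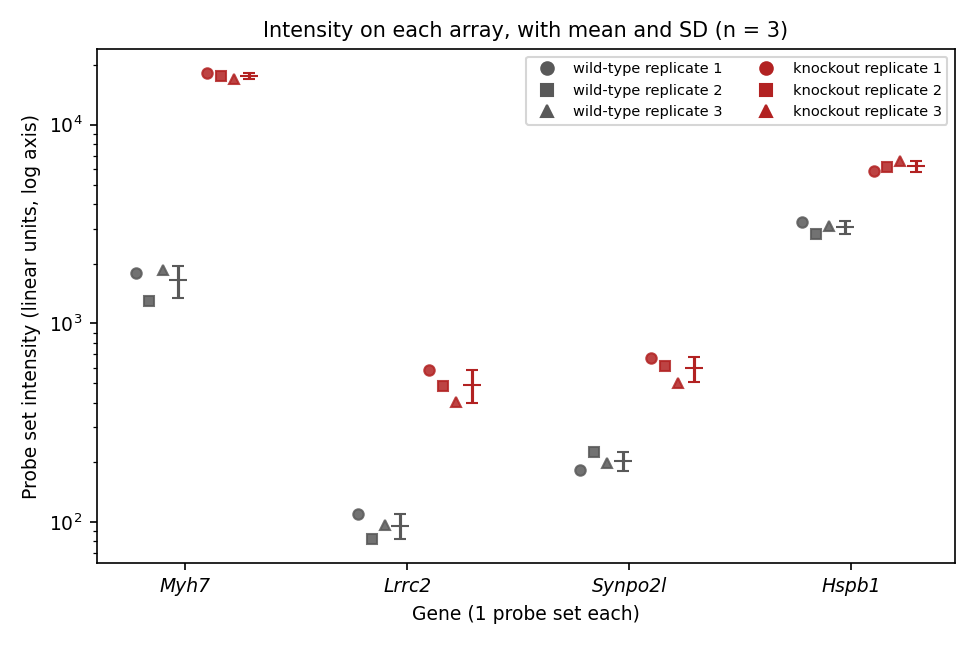
Probe set intensity (log axis) of each gene on the 3 wild-type arrays (grey) and the 3 knockout arrays (red), with symbols for replicates 1 to 3 and bars for the mean and SD. In every gene the red points lie above the grey points, from a 2.03-fold difference of Hspb1 to a 10.8-fold difference of Myh7, while heights of different probe sets cannot be set against each other.

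All 4 genes were thus on the higher side, which was a condition of their choice, where 67.5% of the probe sets were. Their median difference was 1.95 on the log2 scale, against 1.41 for the 183 higher probe sets and 1.18 for all 271 probe sets, the 88 lower ones included. As the genes were chosen by their difference, a larger median is no result about them. How many of them kept a difference of at least 1 changed with the scaling of the arrays. The scalings were computed on a table with 183 higher and 88 lower probe sets, an imbalance that itself shifts the array medians. The lower values below are therefore no sign that the deposited scale was wrong. With each array centred on its median, 24.4% of the 271 probe sets were higher by 1 or more, and so were 3 of the 4 genes, with Myh7 at 2.89, Lrrc2 at 1.81, Synpo2l at 1.01 and Hspb1 at 0.48. After quantile normalization 24.0% of the probe sets and 2 of the 4 genes were past this value, with Myh7 at 2.54, Lrrc2 at 1.89, Synpo2l at 0.95 and Hspb1 at 0.58. Every gene remained on the higher side under both scalings, which for centring the cutoff of the table fixes, since the shift of 0.54 is smaller than any of the differences.

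**Figure D2:**
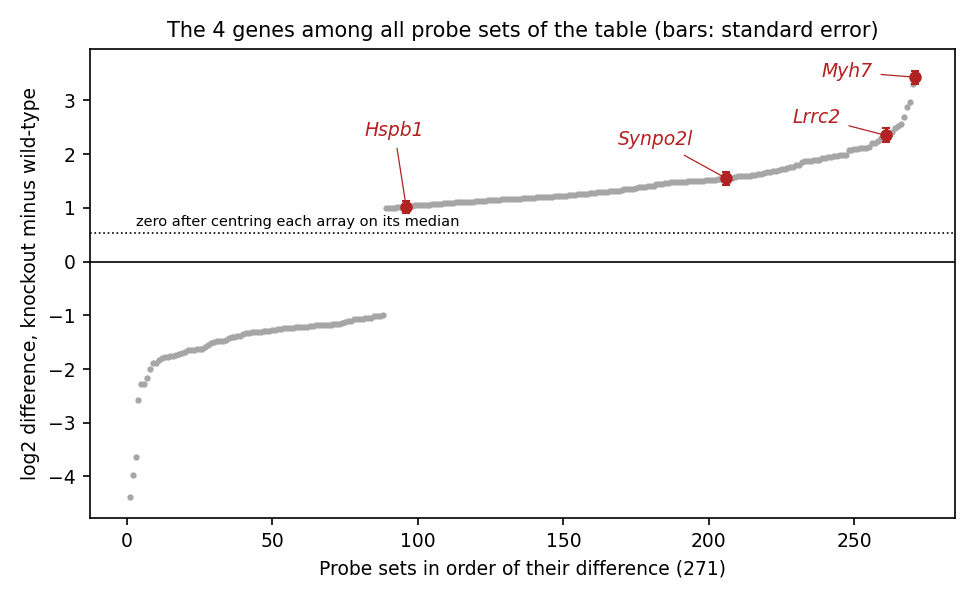
Difference between knockout and wild-type on the log2 scale (y axis) for the 271 probe sets in increasing order (x axis), with the 4 genes in red, their standard errors as bars, and a dotted line at 0.54, where zero would lie with each array centred on its median. Myh7 stands at the upper end and Hspb1 beside the gap that the cutoff of the table leaves.

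A difference between genes within the same array does not depend on a factor common to all probe sets of that array. The difference of Myh7 between the groups exceeded that of Lrrc2 by 1.08 on the log2 scale (standard error 0.15, n = 3 arrays per group), that of Synpo2l by 1.88 (0.26) and that of Hspb1 by 2.41 (0.14). In each of these comparisons the log2 ratios of the knockout arrays lay above all those of the wild-type arrays. By construction such a factor cannot alter these gaps, but other processing can. After quantile normalization Myh7 was at 2.54 and Lrrc2 at 1.89, against 3.43 and 2.35 as deposited. Lrrc2 differed by 0.80 (0.22) more than Synpo2l and by 1.33 (0.215) more than Hspb1, again without overlap. Synpo2l differed by 0.53 (0.23) more than Hspb1, and the log2 ratios of the groups overlapped, so these neighbours in the order were not separated by the spread between arrays. These 6 comparisons describe genes chosen for their difference and were not tested.

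**Figure D3:**
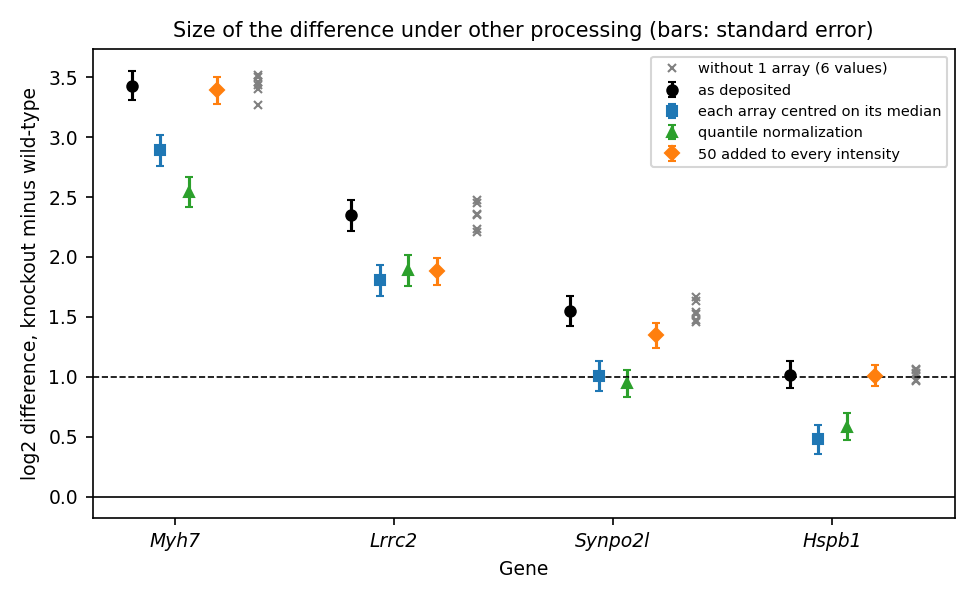
Difference between knockout and wild-type on the log2 scale (y axis) for each gene, as deposited and under 3 other ways of processing, with standard errors, and without each of the 6 arrays in turn (crosses), and with a dashed line at a difference of 1. Myh7 and Lrrc2 stay above it throughout, from 2.54 to 3.52 and from 1.81 to 2.48, Synpo2l goes down to 0.95 and Hspb1 to 0.48.

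Within a group the 4 genes did not follow a common order. In the wild-type, Myh7, Lrrc2 and Hspb1 were lowest on replicate 2, at -0.33, -0.22 and -0.11 from the group mean on the log2 scale, and Synpo2l was highest there, at 0.16. In the knockout, Myh7, Lrrc2 and Synpo2l were highest on replicate 1 and lowest on replicate 3, while Hspb1 was highest on replicate 3. Lrrc2 spanned from -0.26 to 0.27 around the knockout mean, whereas Myh7 stayed within 0.06 of it. With 3 arrays per group no correlation was computed.

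**Figure D4:**
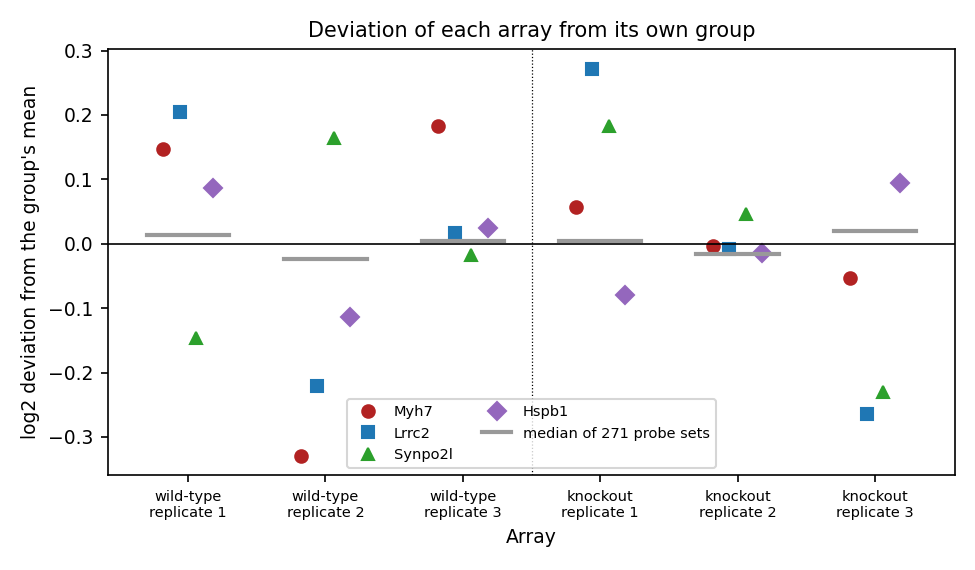
Deviation of each array from the mean of its own group on the log2 scale (y axis) for the 4 genes on the 6 arrays (x axis), with the median deviation of the 271 probe sets as grey lines. The grey lines lie between -0.02 and 0.02, and the widest deviation is that of Myh7 on wild-type replicate 2, at -0.33.

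The named genes whose pattern was most like each of the 4 were found by the root mean square distance over the 6 arrays between log2 intensities, each probe set being centred on its own mean. A small distance needs a difference of similar size, so the measure mostly follows the fold difference. For Myh7 the nearest were Glul, the glutamine synthetase gene, at a distance of 0.28, the E2F partner gene Tfdp2 at 0.44 and the transcription factor gene Klf15 at 0.46, with probe sets that were 7.86, 7.38 and 5.87-fold higher. Glul and Tfdp2 each have a brighter probe set with a smaller difference, of 3.83-fold and 4.60-fold, so their nearness to Myh7 rests on the dimmer one. For Lrrc2 they were the dipeptidase gene Dpep1 at 0.12, the receptor phosphatase gene Ptpro at 0.155 and the kynurenine aminotransferase gene Kyat3 at 0.18. For Synpo2l they were Clic5 at 0.08, which encodes a chloride intracellular channel protein and was read here by a dimmer one of its 3 probe sets, the mitochondrial nucleotide carrier gene Slc25a33 at 0.10 and the autophagy gene Atg101 at 0.12. For Hspb1 they were Fam214a at 0.02, Adhfe1 at 0.04 and Scfd2 at 0.04. The gene nearest to Myh7 was farther from it than any of the 3 nearest genes was from Lrrc2, Synpo2l or Hspb1. Among the 4 genes themselves, the closest to Myh7 was Lrrc2 at 0.56.

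Other genes of the same processes were counted from lists written by hand. Of 265 genes in 10 lists, 10 are in the table, namely the 4 genes described here and 6 others, of which 1 was higher and 5 were lower in the knockout. By comparison, 143 of the 215 genes of the table were higher and 72 were lower. Genes of a list that are outside the table are not analysed here, so the share of each list that changed is not known.

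Among 29 genes of the thick filament and M-band Myh7 was the only one in the table, as it was among 44 genes of hypertrophy and the fetal gene program. Nppa, Nppb and Acta1, which encode the natriuretic peptides and skeletal α-actin and are used with Myh7 as markers of a stressed ventricle, are thus not analysed here. None of 21 genes of the thin filament and none of 17 of the intercalated disc was in the table. Of 41 genes of the Z-disc and its attachments 2 were, and they differed in opposite directions. Besides Synpo2l this was Fblim1, an adaptor between filamin and integrin attachments, which was lower at 413 ± 36.9 against 852 ± 78.8 (SD, n = 3 each), or 2.06-fold.

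Hspb1 was the only gene in the table of 10 small heat shock proteins. Of 53 further chaperones and heat shock factors 2 were in the table and both were lower in the knockout, as were 72 of the 215 genes of the table. So few genes give no direction for chaperones as a group. Hspa4, a partner of the Hsp70 chaperones, was at 122 ± 8.69 against 298 ± 14.9 (SD, n = 3 each), which is 2.46-fold lower. Serpinh1, the collagen chaperone of the endoplasmic reticulum, was 2.10-fold lower, and its probe set also ends in _x_at. Of 23 genes of calcium handling 1 was in the table, the endoplasmic reticulum chaperone and calcium store gene Calr, which was 2.48-fold lower. Its other probe set was lower as well, but both probe sets of Calr end in _x_at. No list was tested.

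Of 27 genes of the thyroid hormone response of the heart 3 were in the table. Besides Myh7, which thyroid hormone is known to repress, these were Klf9, a transcription factor induced by thyroid hormone and by glucocorticoids, and Me1, the cytosolic malic enzyme that thyroid hormone induces in liver. Klf9 was higher at 2634.5 ± 199 against 1176 ± 93.2 and Me1 was lower at 103 ± 12.6 against 301 ± 31.6 (SD, n = 3 each), which is 2.24-fold and 2.92-fold. Of 17 genes of coactivation by PGC-1 and the estrogen-related receptors, Lrrc2 was the only one in the table. This list is not complete either. Genes of fatty acid oxidation are outside it, and of these Cpt2, Hadhb and Acaa2 were 3.55, 2.27 and 2.27-fold lower. Such genes were not counted by direction, so the single listed gene gives no direction for the targets of these factors.

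Markers of the cells in the ventricle were looked up in the same way. Of 16 markers of ventricular cardiomyocytes 2 were in the table and both were higher, as were 143 of the 215 genes of the table. They are Myh7, whose being higher was a condition of its choice, and Hey2, a transcription factor of the ventricular compact layer. Hey2 was at 288 ± 8.23 against 143 ± 5.96 (SD, n = 3 each), or 2.01-fold. Of 15 fibroblast markers 3 were in the table and all were lower, the collagen genes Col3a1 and Col6a3 and the dermatopontin gene Dpt, by 2.14, 2.01 and 2.07-fold. Their summed intensity was 5254 to 5829 in the wild-type and 2604 to 2814 in the knockout. Such a sum over different probe sets is no measure of the amount of fibroblasts. For comparison, 72 of the 215 genes of the table were lower. The list is not complete, since Scara5, which fibroblasts also express, is outside it and was 3.87-fold higher. Of 13 markers of the conduction system the potassium channel subunit gene Kcne1 was in the table and was 2.50-fold lower. Its intensity was 544 to 674 in the wild-type and 227 to 266 in the knockout. No member of the lists for atrial cardiomyocytes, skeletal muscle, smooth muscle, endothelium, epicardium, erythroid cells or leukocytes was in the table. This does not mean that no RNA of such cells differed. Of genes outside the lists that leukocytes express, Fcgr3 was 2.08-fold higher and Lsp1 3.14-fold lower. The part of the cell makeup of the ventricles in the differences of the 4 genes was not tested.

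The windows from 250 bases before to 50 after the annotated starts of the 4 genes were searched for motifs of muscle and stress transcription. RefSeq gives 6 such windows on GRCm38.p6, 2 each for Myh7 and Synpo2l, and for each gene the window with the most matches is printed, 5′ to 3′ on the strand of the gene, with the matches in capitals. They are chr14:54994577-54994876 (minus strand) for Myh7, chr9:110951295-110951594 (plus) for Lrrc2, chr14:20664525-20664824 (minus) for Synpo2l and chr5:135887669-135887968 (plus) for Hspb1.
Myh7: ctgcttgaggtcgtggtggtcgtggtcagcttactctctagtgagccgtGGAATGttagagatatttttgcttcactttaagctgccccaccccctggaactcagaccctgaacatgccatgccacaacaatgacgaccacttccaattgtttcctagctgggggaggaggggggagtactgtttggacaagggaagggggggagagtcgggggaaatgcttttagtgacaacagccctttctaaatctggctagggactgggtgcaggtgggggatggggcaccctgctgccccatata
Lrrc2: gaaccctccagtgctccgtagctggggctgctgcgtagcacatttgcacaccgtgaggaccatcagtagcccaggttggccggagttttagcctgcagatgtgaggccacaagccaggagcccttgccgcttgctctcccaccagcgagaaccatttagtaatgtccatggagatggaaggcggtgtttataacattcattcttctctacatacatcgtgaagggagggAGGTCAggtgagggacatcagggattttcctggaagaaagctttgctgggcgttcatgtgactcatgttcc
Synpo2l: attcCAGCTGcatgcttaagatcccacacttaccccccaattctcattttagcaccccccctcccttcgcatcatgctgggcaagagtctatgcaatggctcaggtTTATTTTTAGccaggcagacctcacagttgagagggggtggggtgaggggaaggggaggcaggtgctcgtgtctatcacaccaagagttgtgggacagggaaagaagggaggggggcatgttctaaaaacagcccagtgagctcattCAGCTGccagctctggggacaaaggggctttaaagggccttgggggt
Hspb1: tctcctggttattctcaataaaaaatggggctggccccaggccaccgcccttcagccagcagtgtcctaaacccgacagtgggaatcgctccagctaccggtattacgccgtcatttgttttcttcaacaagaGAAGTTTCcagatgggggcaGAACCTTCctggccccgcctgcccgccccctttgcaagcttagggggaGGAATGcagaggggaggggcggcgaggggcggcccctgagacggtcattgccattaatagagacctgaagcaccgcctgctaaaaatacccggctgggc
Matches on both strands were counted, and none of those found overlapped another. The MCAT motif CATTCC, bound by TEAD factors, occurred once in the printed window of Myh7, at -201 to -196, and once in that of Hspb1, at -49 to -44. It was held by 14.7% of 32851 windows of this length. The other window of Myh7 held no match to any motif searched. The pattern GAANNTTC, only a part of a heat shock element, occurred at -117 to -110 and at -97 to -90 of Hspb1 and in 7.86% of all windows. The MEF2 motif was found in both windows of Synpo2l, once in each, and in 3.19% of all windows. The muscle E-box CAGCTG occurred at -246 to -241 and at 4 to 9 in the printed window of Synpo2l, and 16.3% of all windows held it. The nuclear receptor motif AGGTCA occurred in Lrrc2 at -21 to -16, and in 16.3% of all windows. The CArG motif was in none of the 6 windows and in 1.63% of all. No motif of those searched was found in more than 2 of the 4 genes. A match shows only that these letters are in the window.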

How the data were processed

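Ventricular RNA of 3 wild-type and 3 cardiac-specific knockout samples was measured on 1-colour Affymetrix mouse genome arrays. The values that the authors deposited are linear probe set intensities. Their analysis in GeneSpring GX took a cutoff of 1 on the log2 fold change together with a cutoff on the p-value, so a small spread within groups was also part of the selection. Summarization and normalization are not given in the sources used here, and the linear scale was taken from the values, which run from 30.1 to 18292. Nothing states that each array is a separate animal.

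After log2 transformation (floor 1, never reached), limma 3.58.1 was fitted with lmFit and eBayes under R 4.3.3 to all 271 probe sets. It gave differences and standard errors, and no p-values were used. The prior had 28.1 degrees of freedom, estimated on selected probe sets, so standard errors can be too small. The fit was tested on simulated data. Counts used Python 3.11.15 with pandas 2.3.3. Names came from the platform annotation (1 gene for 253 probe sets, several for 3, none for 15), checked by gene number against RefSeq GRCm38.p6, in which 253 were found. A gene with several probe sets was represented by the brightest, except in the search for similar patterns, which used every probe set. The genes, lists and alternatives were chosen with earlier results of these data known. Named are the 4 genes, every listed gene in the table, and the 3 named genes nearest in pattern to each of the 4. Some genes outside the lists are also named, to show the limits of these lists. The number of arrays limits the precision.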

Additional observations from a re-analysis of the deposited data

How the results depend on the processing

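The table holds only probe sets whose group means are apart by at least 1.00 on the log2 scale, and in each the groups do not overlap. Without overlap the direction of the 4 genes could not turn when an array was left out. Nor could it turn with a balanced block, or with centring, which shifted every difference by only 0.54. The constant direction is thus no sign of stability. The size of the 4 differences depended on the scaling of the arrays. Centred on the median of each array, the log2 difference was 2.89 for Myh7 in place of 3.43, 1.81 for Lrrc2 in place of 2.35, 1.01 for Synpo2l in place of 1.55 and 0.48 for Hspb1 in place of 1.02. After quantile normalization these were 2.54, 1.89, 0.95 and 0.58. Which zero is right could not be tested on selected probe sets, whose excess of higher ones itself shifts the array medians. With 50 added to every intensity Lrrc2 was at 1.88 and Synpo2l at 1.35, by construction, since dim probe sets are compressed most. Without each array in turn the values ran from 3.27 to 3.52 for Myh7, 2.21 to 2.48 for Lrrc2, 1.46 to 1.66 for Synpo2l and 0.96 to 1.06 for Hspb1. With the replicate number as a block the log2 differences were 3.43, 2.35, 1.55 and 1.02, which a balanced block cannot alter, and the standard errors were 0.12, 0.12, 0.12 and 0.09 in place of 0.12, 0.13, 0.12 and 0.11. Deviations of same-numbered arrays correlated over probe sets at -0.02, 0.01 and 0.08, and differently numbered pairs ran from -0.15 to 0.12. No pairing by number was thus seen, but probe sets selected for a small spread cannot show that there was none. The ratio of arithmetic means moved none of the 4 by more than the spread between arrays. The trend and robust options of eBayes alter only the standard errors, so they left the log2 differences as they were by construction. Dropping every probe set that ends in _x_at or _s_at removed Hspb1 and left 153 higher and 76 lower probe sets, and dropping the dimmest 25% left 139 and 64. Each gene has 1 probe set, so a mean over probe sets gave no other value. Quantile normalization gave 182 higher and 88 lower probe sets whose groups did not overlap, against 183 and 88 as deposited, and leaving out an array could not change these counts.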
